A study of Mus musculus with 8 samples.

Results

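The transcripts of the 3 mouse RUNX transcription factors, *Runx1*, *Runx2* and *Runx3*, and of their shared partner *Cbfb* were followed in BM-derived LC-like cells that lacked RARα or had been given all-trans RA. These 4 genes were taken by symbol from a table of 24421 genes, with earlier results of these data known. RNA-seq was run on CD11c+ cells from 8 C57BL6 BM cultures, all grown with GM-CSF at 20 ng/ml, hTGF-β1 at 10 ng/ml and 10% FBS, and collected on magnetic beads. WT 1 and WT 2 were wild-type cells without added RA, and the libraries ∆RaraCD11c 1 and ∆RaraCD11c 2 (genotype RARa-/- in the labels) came from mice in which CD11c-Cre deletes a floxed part of *Rara*, so that deletion is tied to CD11c expression. By the study's methods its wild-type controls could be C57BL/6, floxed *Rara* or CD11c-Cre mice, and the labels do not say which were used here. Control 1 and Control 2 were a second set of wild-type cells without added RA, and RA 1 and RA 2 were wild-type cells with RA, at 1 nM by the labels and 10 nM by the study's text on this RNA-seq. That text gives 3 days of culture in charcoal-treated FBS, where the labels allow 3 to 5 days and regular FBS as well. The question was whether the fall of *Runx3* with either treatment was particular to *Runx3*, or whether its paralogues rose in its place.

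RUNX proteins bind DNA through a shared Runt domain, and CBFβ, which does not bind DNA itself, holds that domain in its DNA-binding form and protects the protein from breakdown. Each RUNX factor can activate or repress a gene, depending on the cofactors that it recruits. *Runx1* is required for the first blood stem cells, *Runx2* for bone formation, and *Runx3* acts in CD8 T cells, NK cells and DCs, and mice without it lack epidermal LCs. LCs depend on TGF-β, a signal that RUNX proteins share through Smad proteins.

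*Runx3* lies on chromosome 4 from 135120645 to 135177990 on the plus strand of mm10. *Runx1* lies on chromosome 16 from 92601466 to 92826074 and *Runx2* on chromosome 17 from 44495987 to 44814797, both on the minus strand. *Cbfb* lies on chromosome 8 from 105170674 to 105217988 on the plus strand. The exon lengths behind the counts were 3891 bases for *Runx3*, 7378 for *Runx1*, 8554 for *Runx2* and 2913 for *Cbfb*. Each RUNX gene is transcribed from a distal and a proximal promoter, and a count over the whole gene does not tell the transcripts of both apart. *Supt3* overlaps the 5' end of *Runx2* on the opposite strand, and the authors counted reads by strand.

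The distal promoters of the RUNX genes carry a pair of RUNX binding sites, known from mammals, and these are shown because they are a feature that the paralogues share. The longest run of letters shared by a promoter window of each RUNX gene was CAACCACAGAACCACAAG, of 18 bases, which holds this pair, and it was then searched on both strands of the RefSeq promoter table (GRCm38.p6, 250 bases before to 50 after each start). The 4 genes had 6 windows there. Capitals mark the shared run, and each line is the strand of the gene.
*Runx3*, chr4:135120503-135120532: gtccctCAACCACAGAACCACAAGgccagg
*Runx1*, chr16:92826025-92826054: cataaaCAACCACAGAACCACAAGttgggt
*Runx2*, chr17:44814583-44814612: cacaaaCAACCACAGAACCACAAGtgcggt
Positions were counted from the start in the promoter table, at 135120645 for *Runx3*, 92826074 for *Runx1* and 44814627 for *Runx2*, the last of which lies inside the span of the gene given above. The run began at base -136 for *Runx3*, at base 27 for *Runx1* and at base 22 for *Runx2*. Of 32851 promoter windows, 4 held these letters (0.0122%), namely those of the 3 RUNX genes and of *Gm16225*, a lncRNA gene that lies next to the start of *Runx3*, so that both windows contain the same pair. The single site ACCACA, which the pair holds more than once, was in 16.8% of all windows. No match to the pair or to ACCACA was found in the window of *Cbfb* or in the second windows of *Runx1* and *Runx3*. The direct repeat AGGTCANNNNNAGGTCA, a form bound by RAR and RXR, was in 3 windows of the table and in none of the 6. Its repeat unit AGGTCA was in 16.3% of all windows and, among the 6, in that of *Runx2*. These matches are descriptions of the letters alone.

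Between 26325627 and 76077813 read pairs were counted per library, and 2040 to 9791 of them fell on *Runx3*. All 4 genes passed the filter of at least 0.5 CPM (counts scaled to library size) in at least 2 libraries, as did 12424 genes in all. Library sizes for CPM were adjusted by the trimmed mean of M values (TMM). *Rara*, the targeted gene, had 104 and 127 CPM in the WT pair and 62.1 and 93.2 CPM in the ∆RaraCD11c pair. Its log2 fold change of -0.57 (standard error 0.18) missed the threshold of 0.05 on the quasi-likelihood test of edgeR (adjusted p = 0.0521). *Rara* counts cover the whole gene and do not isolate its deleted part. The LC label was checked on *Cd207*, which encodes langerin. It had 18.4 and 19.8 CPM in WT 1 and WT 2, 70.6 and 97.7 CPM in the Control pair, 0.54 and 0.26 CPM in the ∆RaraCD11c libraries and 0.040 and 0.038 CPM with RA, so the treated libraries held little of it. *Xist*, a transcript of female cells, had 91.1 and 253 CPM in WT 1 and WT 2, while the rest had 1.08 CPM or less, so what goes with *Xist* and the loss of RARα cannot be told apart. Reads in 3' UTRs made up 46.5 to 48.5% in the ∆RaraCD11c libraries, against 30.8 to 39.0% in the others, and the part of this share in the results was not tested beyond fits with the trend on gene length removed. The study calls its samples independent, but whether replicates came from different mice or from separate cultures is not given in the sources used here, so p-values measure the spread between libraries, which may be technical.

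*Runx3* fell in ∆RaraCD11c cells. WT 1 and WT 2 had 130.6 and 130.5 CPM, and the ∆RaraCD11c libraries had 84.8 and 70.8 CPM. Both WT libraries stood above both ∆RaraCD11c libraries, as in 33.0% of tested genes, and the WT libraries were nearly equal. The mean fell from 130.5 ± 0.11 to 77.8 ± 9.89 CPM (SD, n = 2 each). That is a log2 fold change of -0.75 (standard error 0.17, 95% interval -1.15 to -0.35), or 1.68-fold lower, with an adjusted p of 0.0180 from edgeR. *Runx3* was the only one of the 4 genes called in this comparison, against 26.9% of all tested genes called in either direction and 13.3% called lower. Of the tested genes, 10.0% had a lower log2 fold change than *Runx3*. The call was lost without WT 2 (-0.75, adjusted p = 0.0821 from edgeR) and without ∆RaraCD11c 2 (-0.67, adjusted p = 0.0528 from edgeR), and it was made in the other 6 fits with a library left out and in all 12 other settings, over which the adjusted p from edgeR or DESeq2 ran from 0.000359 to 0.0373.

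*Runx3* also fell with RA. It had 133 and 143 CPM in Control 1 and Control 2, and 41.4 and 60.9 CPM in RA 1 and RA 2. The groups did not overlap, as in 38.1% of tested genes that lay lower, and RA 1 was the lowest library of all 8. The mean went from 138 ± 6.90 to 51.2 ± 13.8 CPM (SD, n = 2 each). The log2 fold change was -1.43 (standard error 0.18, 95% interval -1.84 to -1.03), or 2.70-fold lower, with an adjusted p of 0.000622 from the same edgeR test. With RA, *Runx3* and *Runx2* were the called genes among the 4, against 34.5% of all tested genes in either direction, 19.3% lower and 15.2% higher. Of the tested genes, 8.44% had a lower log2 fold change than *Runx3*. The call held in all 8 fits with a library left out, between -1.74 and -1.18, and in all 10 other settings. The change with RA minus the change in ∆RaraCD11c cells was -0.69 (95% interval -1.25 to -0.12), and this difference did not pass the threshold after adjustment (adjusted p = 0.138 from edgeR). None of the 4 genes passed this test, against 6.09% of tested genes, 1.86% higher and 4.23% lower. Without RA 2 the difference for *Runx3* was -0.99 and passed (adjusted p = 0.0297 from edgeR), and over the other 7 fits with a library left out it did not.

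**Figure D1:**
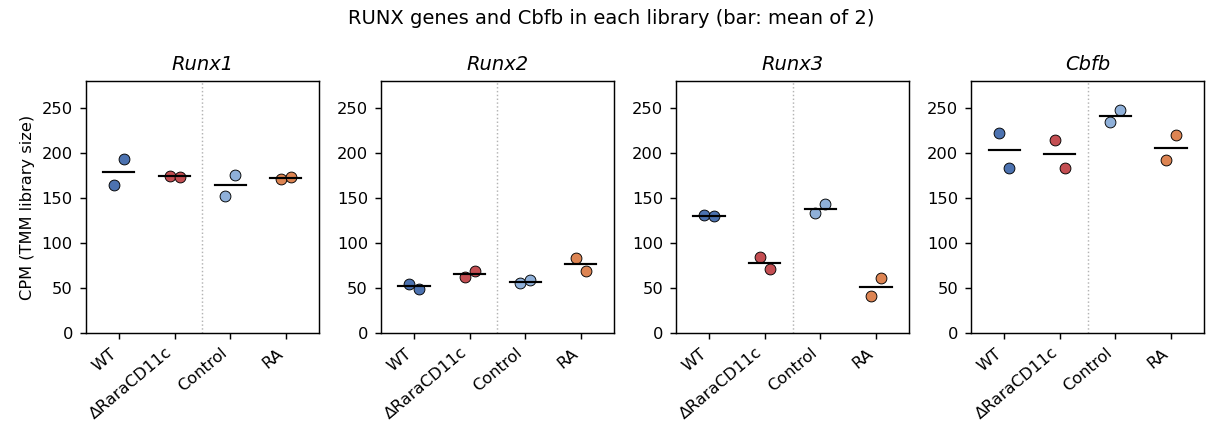
CPM with TMM library sizes (vertical axis) of *Runx1*, *Runx2*, *Runx3* and *Cbfb* in each of the 8 libraries, as points, with a bar at the mean of each pair of libraries. *Runx3* sits at 130.5 to 143 CPM in the 4 libraries without treatment and at 41.4 to 84.8 CPM in the 4 others, while *Runx1* stays between 152 and 193 CPM in all 8.

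Markers of other cell types moved with *Runx3* in part. Because these are bulk samples, fewer cells of a type and less RNA per cell cannot be told apart. *Runx3* is also a gene of T cells and NK cells, whose 13 listed markers summed to 9.11 to 14.6 CPM in WT 1 and WT 2 and to 8.91 to 12.0 CPM in the ∆RaraCD11c libraries, ranges that overlap. In the RA experiment the same sum was 26.2 to 34.5 CPM in the Control libraries and 4.79 to 7.59 CPM with RA. Of the 7 T and NK markers tested, 5 were lower with RA and 0 were higher, while 2 were lower and 1 was higher in ∆RaraCD11c cells. Over all tested genes 19.3% were lower and 15.2% higher with RA, and 13.3% were lower and 13.6% higher in ∆RaraCD11c cells. *Cd3e*, a subunit of the T cell receptor complex, had 0 counts in both Control and both RA libraries. That allows up to 0.0601 CPM per library (3 counts, for counting error only). It had 0.43 CPM in WT 1 and 0.29 CPM in ∆RaraCD11c 1. *Cd3d*, of the same complex, was at no more than 1.11 CPM in any library. It was called lower in both comparisons (-2.12 and -4.03, adjusted p = 0.0382 and 0.00954 from edgeR), as was *Cd8b1* (-2.89 and -3.36). *Thy1* was lower with RA (-2.62), and the marker higher in ∆RaraCD11c cells was *Klrb1c* (2.70). The summed LC markers (6 genes) went from 3317 to 3468 CPM down to 2514 to 2972 CPM in ∆RaraCD11c cells, and from 3370 to 3399 CPM down to 1529 to 1842 CPM with RA. Of these 6 markers, 4 were lower and 1 was higher in ∆RaraCD11c cells, and 5 were lower and 1 was higher with RA. The higher one was *Cd24a* in both (0.51 and 0.48). *Cdh1* and *Cd24a* made up most of the sum, so it moved less than *Epcam*, which had -2.31 and -6.24. The 7 pDC markers summed to 491 to 554 CPM in WT 1 and WT 2 and 410 to 635 CPM in the ∆RaraCD11c libraries. They summed to 397 to 586 CPM in the Control libraries and 272 to 325 CPM with RA, where 5 of the 7 were lower. *Bst2* and *Irf8* made up most of this sum. In ∆RaraCD11c cells 1 of the 7, *Ccr9*, was lower (-2.46, adjusted p = 0.0342 from edgeR) and 0 were higher, with a list median of -0.99. The part of any of these cells in the level of *Runx3* was not tested.

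*Runx1*, the RUNX gene with the most counts in these cells, did not pass the test in either comparison. It had 164 and 193 CPM in WT 1 and WT 2 and 175 and 174 CPM in the ∆RaraCD11c libraries. Both ∆RaraCD11c values lay between the WT values. The log2 fold change was -0.04 (standard error 0.11, 95% interval -0.29 to 0.22, adjusted p = 0.821 from edgeR). In the RA experiment *Runx1* had 152 and 175 CPM in the Control pair and 171 and 173 CPM with RA. Again both treated values lay between the controls. The log2 fold change was 0.07 (standard error 0.11, 95% interval -0.18 to 0.32, adjusted p = 0.649 from edgeR). The intervals thus reach up to a 1.16-fold rise in ∆RaraCD11c cells and a 1.25-fold rise with RA, and a change of *Runx1* within them was not detectable here. With the trend on gene length removed, *Runx1* had 0.19 in ∆RaraCD11c cells and 0.27 with RA, neither past the threshold (adjusted p = 0.182 and 0.0570 from edgeR).

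*Runx2* was the lowest of the RUNX genes per kilobase of exon in all 8 libraries, and it rose with RA. It had 55.5 and 58.4 CPM in Control 1 and Control 2 and 83.8 and 69.1 CPM in RA 1 and RA 2. The RA libraries lay above the Control libraries, as in 36.8% of tested genes. The log2 fold change was 0.42 (standard error 0.12, 95% interval 0.15 to 0.70), or 1.34-fold higher, with an adjusted p of 0.0277 from edgeR. This call was lost without Control 1 (0.38), without Control 2 (0.46) and without RA 1 (0.28), with adjusted p from 0.105 to 0.160 by edgeR. In ∆RaraCD11c cells *Runx2* was at 61.6 and 69.4 CPM, against 54.5 and 49.2 CPM in WT 1 and WT 2. These libraries did not overlap either, as in 32.6% of tested genes that lay higher, and the log2 fold change of 0.34 (standard error 0.12, 95% interval 0.06 to 0.62) missed the threshold (adjusted p = 0.0714 from edgeR). It passed once the trend on gene length was removed, at 0.58 (adjusted p = 0.0210 from edgeR), one of 2 settings out of 12 that called it. The highest adjusted p over those 12 was 0.258, with library totals in place of TMM. The changes of *Runx2* under the 2 treatments differed by 0.08 (95% interval -0.31 to 0.48, adjusted p = 0.811 from edgeR). *Supt3*, the gene that overlaps *Runx2* on the other strand, had a log2 fold change of 0.29 (adjusted p = 0.160 from edgeR) in ∆RaraCD11c cells and 0.54 (adjusted p = 0.0209 from edgeR) with RA.

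*Cbfb* did not pass the test in either comparison. It had 222 and 184 CPM in WT 1 and WT 2 and 214 and 183 CPM in ∆RaraCD11c 1 and 2. Replicate 1 was higher than replicate 2 in both groups, and the groups overlapped. The log2 fold change was -0.03 (standard error 0.13, 95% interval -0.33 to 0.27, adjusted p = 0.885 from edgeR). *S100a8*, a neutrophil gene, was also higher in WT 1 and ∆RaraCD11c 1, at 716 and 831 CPM, than in WT 2 and ∆RaraCD11c 2, at 201 and 246 CPM. The 7 neutrophil markers in the table together ranged from 566 to 2547 CPM in the WT pair and from 730 to 2694 CPM in the ∆RaraCD11c pair, and their part in *Cbfb* was not tested. With RA, *Cbfb* was at 192 and 220 CPM, below 234 and 248 CPM in the Control libraries. These groups did not overlap, as in 38.1% of tested genes that lay lower, and the log2 fold change of -0.23 (standard error 0.13, 95% interval -0.52 to 0.07) did not pass (adjusted p = 0.207 from edgeR).

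**Figure D2:**
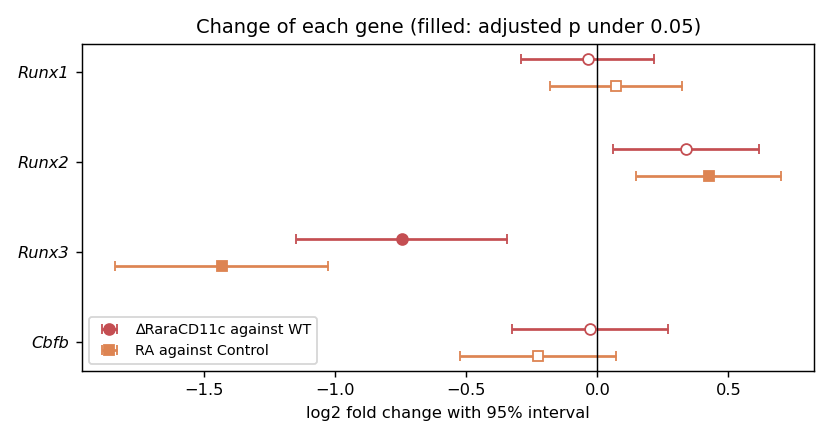
Log2 fold change (horizontal axis) of each gene in ∆RaraCD11c cells against WT 1 and WT 2 (circles) and with RA against Control (squares), with 95% intervals from edgeR, filled where the adjusted p was under 0.05. *Runx3* lies at -0.75 and -1.43 and *Runx2* at 0.34 and 0.42, while the intervals of *Runx1* and *Cbfb* include 0.

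Levels of the RUNX genes were then set beside each other as CPM per kilobase of exon. *Runx3* was the highest of the RUNX genes in all 4 libraries without treatment, at 33.6 and 33.5 CPM per kilobase in WT 1 and WT 2 and at 34.3 and 36.8 in the Control libraries. *Runx1* came next, at 22.2 and 26.2 CPM per kilobase in WT 1 and WT 2 and 20.7 and 23.8 in the Control libraries. *Runx2* was at 6.37 and 5.75 CPM per kilobase in WT 1 and WT 2 and at 6.49 and 6.82 in the Control libraries. The 3 genes did not overlap in these 4 libraries. In ∆RaraCD11c 1 and 2 *Runx1* was at 23.7 and 23.5 CPM per kilobase and *Runx3* at 21.8 and 18.2. In RA 1 and RA 2 *Runx1* was at 23.2 and 23.5 CPM per kilobase and *Runx3* at 10.6 and 15.7. The order of *Runx3* and *Runx1* per kilobase was thus reversed in all 4 treated libraries. In CPM, with no division by exon length, *Runx1* lay above *Runx3* in every library, treated or not, so the reversal depends on the exon lengths. In RA 1, *Runx3* came close to *Runx2*, which was at 9.79 CPM per kilobase there and at 8.07 in RA 2. A level per kilobase rests on 1 exon length per gene and depends on which transcripts were present.

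The sum of the 3 RUNX genes was lower with either treatment, and the gain of *Runx2* was smaller than the loss of *Runx3*. The sum was 62.2 and 65.5 CPM per kilobase in WT 1 and WT 2 and 52.7 and 49.8 in the ∆RaraCD11c libraries. In the RA experiment it was 61.4 and 67.4 CPM per kilobase in the Control libraries and 43.7 and 47.2 with RA. Every treated library thus lay below every untreated one. The mean sum went from 63.8 ± 2.33 to 51.3 ± 2.02 CPM per kilobase (SD, n = 2 each) in ∆RaraCD11c cells, and from 64.4 ± 4.21 to 45.4 ± 2.49 with RA. *Runx3* lost 13.6 CPM per kilobase in ∆RaraCD11c cells while *Runx2* gained 1.60, which is 11.8% of that loss. *Runx1* and *Runx2* together gained 0.99 CPM per kilobase, or 7.27% of the loss. With RA, *Runx3* lost 22.4 CPM per kilobase and *Runx2* gained 2.27, which is 10.2% of that loss. *Runx1* and *Runx2* together gained 3.39 CPM per kilobase there, or 15.1% of the loss. In CPM, with no division by exon length, *Runx2* changed by 13.7 and *Runx3* by -52.7 in ∆RaraCD11c cells, a gain of 26.0% of the loss, and by 19.5 and -87.1 with RA, a gain of 22.3% of the loss. The sum changed by -12.1% in ∆RaraCD11c cells and by -16.6% with RA on that scale, against -19.7% and -29.5% per kilobase. These shares are differences of means of 2 libraries and carry no test. The sum and the shares were not recomputed with the trend on gene length removed. In that fit *Runx1*, *Runx2* and *Runx3* had log2 fold changes of 0.19, 0.58 and -0.61 in ∆RaraCD11c cells. With RA they had 0.27, 0.65 and -1.40. Each of these lay above its value in the main fit, so the part of the loss of transcript that is offset could be larger there. The sums are of transcripts, not of RUNX protein or its activity. Whether *Runx1* or *Runx2* can stand in for *Runx3* was not tested.

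**Figure D3:**
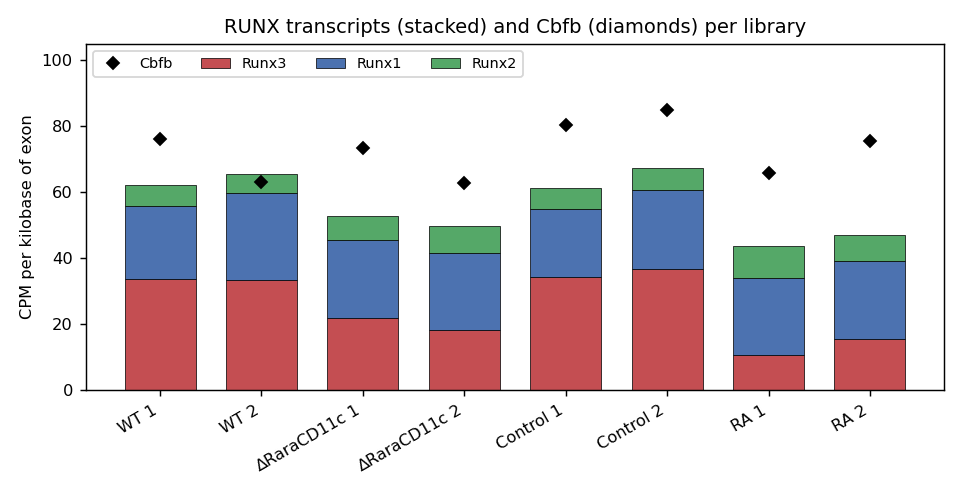
CPM per kilobase of exon (vertical axis) in each library, with *Runx3*, *Runx1* and *Runx2* stacked as bars and *Cbfb* as a diamond. The bars reach 61.4 to 67.4 in the WT and Control libraries, 49.8 and 52.7 in the ∆RaraCD11c libraries and 43.7 and 47.2 in the RA libraries, and most of the drop is in the *Runx3* segment.

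The make-up of the RUNX pool shifted accordingly. *Runx3* made up 54.0 and 51.2% of the sum in WT 1 and WT 2, and 41.4 and 36.5% in the ∆RaraCD11c libraries. It made up 55.8 and 54.6% in the Control libraries and 24.4 and 33.2% with RA. *Runx1*, whose own level did not pass the test, made up 35.8 and 40.02% in WT 1 and WT 2 and 45.0 and 47.2% in the ∆RaraCD11c libraries. Its share was 33.6 and 35.3% in the Control libraries and 53.2 and 49.7% with RA. The ratio of *Runx3* to *Runx1* per kilobase was 1.51 and 1.28 in WT 1 and WT 2 and 0.92 and 0.77 in the ∆RaraCD11c libraries. It was 1.66 and 1.55 in the Control libraries and 0.46 and 0.67 with RA. The mean log2 ratio differed by -0.72 in ∆RaraCD11c cells and by -1.53 with RA. An exact two-sided permutation test gave p = 0.333 for each, the smallest value that 2 against 2 libraries allow. Against all 4 libraries without treatment the differences were -0.82 and -1.43. Each had an exact permutation p of 0.0667, again the smallest possible, and an adjusted p of 0.133 over the 4 comparisons of this ratio. With so few libraries no outcome could fall under 0.05, so these permutation tests cannot decide whether the ratio changed. The pooled libraries also come from the WT and Control sets, which differ in *Xist* and *Cd207*.

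Per kilobase, *Cbfb* stood above the whole RUNX sum in 7 of the 8 libraries, WT 2 being the exception. The ratio of *Cbfb* to the RUNX sum was 1.23 and 0.96 in WT 1 and WT 2 and 1.396 and 1.26 in the ∆RaraCD11c libraries. In the RA experiment it was 1.31 and 1.26 in the Control libraries and 1.51 and 1.60 with RA. The treated libraries lay above their own controls in both experiments, while *Cbfb* itself was called in neither. In CPM per kilobase, *Cbfb* was at 76.2 and 63.1 in WT 1 and WT 2, 73.5 and 63.0 in the ∆RaraCD11c libraries, 80.4 and 85.0 in the Control libraries and 65.9 and 75.5 with RA.

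The genes most like each member were taken by Pearson's r of log2 CPM over the 8 libraries, which include the treatments, so a high r mostly follows the groups and is given as a description. The 5 genes nearest to *Runx3* were *Sec14l2* (r = 0.996), *Rgs12*, a regulator of G protein signalling (0.995), *D630045J12Rik* (0.993), *2900026A02Rik* (0.992) and *Acot6* (0.992). *Sec14l2* had means of 57.1 CPM in the WT pair, 14.99 in the ∆RaraCD11c pair, 67.5 in the Control pair and 6.68 with RA. *Rgs12* had means of 193, 65.5, 250.2 and 22.5 CPM in the same order. Among the members, *Runx2* had r = -0.94 with *Runx3*, *Cbfb* 0.48 and *Runx1* -0.07. The nearest to *Runx2* were *4632404H12Rik* (0.984), *Rbmx*, which encodes an RNA-binding protein (0.968), and *Fbxl5*, an iron-sensing ubiquitin ligase subunit (0.967). The nearest to *Runx1* were *Cmip* (0.934), *C87436* (0.900) and *Diras2* (0.853), and those nearest to *Cbfb* were *Ms4a3* (0.950), *Eps15* (0.949) and *Zbtb41* (0.939).

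Of 11 tested corepressors that RUNX proteins recruit, 1 was higher and 1 lower in ∆RaraCD11c cells, and 1 was higher and 3 were lower with RA. Over all tested genes 26.9% were called in ∆RaraCD11c cells and 34.5% with RA. The list's median log2 fold change was -0.11 and -0.08, beside 0.00 and -0.01 over all tested genes. *Tle2*, a Groucho corepressor that binds the C-terminal end of RUNX proteins, fell in both comparisons. It was at 10.5 and 13.0 CPM in WT 1 and WT 2, 3.99 and 6.77 in the ∆RaraCD11c libraries, 14.3 and 14.4 in the Control libraries and 5.63 and 5.14 with RA. Its log2 fold change was -1.12 (adjusted p = 0.0146 from edgeR) and -1.41 (adjusted p = 0.00319 from edgeR). *Cbfa2t3*, of the ETO family of corepressors, was at 62.5 and 79.4 CPM in WT 1 and WT 2, 46.3 and 55.6 in the ∆RaraCD11c libraries, 80.6 and 79.8 in the Control libraries and 20.3 and 33.9 with RA. It fell with RA (-1.57, adjusted p = 0.00156 from edgeR) and missed the threshold in ∆RaraCD11c cells (-0.48, adjusted p = 0.150 from edgeR). Of the histone deacetylase genes, *Hdac3* rose in ∆RaraCD11c cells (0.40) and had 0.19 with RA, which did not pass, and *Hdac1* fell with RA (-0.31) and had -0.17 in ∆RaraCD11c cells, which did not pass. *Runx1t1*, the founding ETO family gene, had 2 counts in all 8 libraries together.

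Of 6 RUNX coactivator genes tested, 1 was higher and 3 were lower with RA, where 15.2% and 19.3% of all tested genes were. In ∆RaraCD11c cells 0 were higher and 1 was lower, where 13.6% and 13.3% of all tested genes were. The list medians were -0.44 with RA and 0.01 in ∆RaraCD11c cells. The 3 lower with RA were genes of histone acetyltransferases, of which 4 were tested. *Crebbp*, encoding CBP, fell in both comparisons, by -1.36 in ∆RaraCD11c cells and by -0.52 with RA. It was at 15.3 and 19.2 CPM in WT 1 and WT 2, 6.24 and 7.16 in the ∆RaraCD11c libraries, 21.8 and 24.2 in the Control libraries and 14.5 and 17.5 with RA. *Ep300*, encoding its relative p300, and *Kat6a* fell with RA (-0.41 and -0.47) and had log2 fold changes of 0.02 and 0.00 in ∆RaraCD11c cells. *Kat6b*, the remaining acetyltransferase gene, had -0.32 with RA and 0.17 in ∆RaraCD11c cells and passed in neither. *Prmt1*, an arginine methyltransferase that acts on RUNX1, rose with RA (0.56) and had 0.43 in ∆RaraCD11c cells, which missed the threshold.

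Transcription factors that bind DNA beside RUNX moved in both directions. Of 14 tested, 2 were higher and 2 lower in ∆RaraCD11c cells, and 3 were higher and 5 lower with RA, against 26.9% and 34.5% of all tested genes called in the respective comparison. The medians were -0.08 and -0.12. *Fli1*, an ETS factor of blood cells, rose in both, from 49.5 and 37.3 CPM in WT 1 and WT 2 to 86.0 and 73.5 in the ∆RaraCD11c libraries and from 23.3 and 27.3 CPM in the Control libraries to 49.5 and 47.9 with RA (0.88 and 0.95, adjusted p = 0.00670 and 0.00258 from edgeR). *Tal1*, a factor of blood stem cells and erythroid cells, fell in both, from 4.71 and 4.46 CPM to 2.78 and 2.56 in the ∆RaraCD11c libraries and from 9.54 and 9.64 CPM to 2.42 and 3.11 with RA (-0.78 and -1.79, adjusted p = 0.0254 and 0.000365 from edgeR). *Lmo2*, a bridging protein of the same complex, fell with RA (-0.89) and had -0.09 in ∆RaraCD11c cells. *Lyl1*, a relative of *Tal1*, rose with RA (1.06) and had 0.29 in ∆RaraCD11c cells. *Spi1*, encoding PU.1, a partner of RUNX1 in myeloid cells, had -0.21 and -0.09, neither past the threshold.

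Of 12 genes whose products modify or degrade RUNX proteins, 2 were higher and 1 was lower in each comparison, beside the same 26.9% and 34.5% of all tested genes. *Smurf1*, a ubiquitin ligase for RUNX proteins and Smads, fell in both, from 81.2 and 94.3 CPM in WT 1 and WT 2 to 44.4 and 46.5 in the ∆RaraCD11c libraries and from 123 and 129 CPM in the Control libraries to 64.0 and 74.9 with RA (-0.95 and -0.86, adjusted p = 0.00241 and 0.000948 from edgeR). *Stub1*, encoding the ubiquitin ligase CHIP, rose in both (0.64 and 0.48), as did *Cdc20*, an activator of the anaphase-promoting complex (0.53 and 0.57). *Ptpn11*, a phosphatase gene, had -0.38 and -0.07 and passed in neither. The list medians were 0.06 and 0.08.

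Of 13 listed genes known from leukocytes as activated by RUNX factors, 8 could be tested. The edgeR test called 1 of them lower in ∆RaraCD11c cells, where 13.3% of all tested genes were lower, and 3 lower with RA, where 19.3% were. The medians were -0.18 and -1.27. *Csf1r*, the receptor for M-CSF, fell in both. It was at 1227 and 1323 CPM in WT 1 and WT 2, 619 and 584 in the ∆RaraCD11c libraries, 1233 and 1530 in the Control libraries and 730.1 and 913 with RA (-1.08 and -0.75, adjusted p = 0.00292 and 0.00552 from edgeR). *Itgae*, encoding CD103, which RUNX3 activates in CD8 T cells, was at 212 and 298 CPM in WT 1 and WT 2, 109 and 106 in the ∆RaraCD11c libraries, 158 and 261 in the Control libraries and 20.2 and 49.7 with RA. It fell with RA (-2.58, adjusted p = 0.00235 from edgeR) and just missed the threshold in ∆RaraCD11c cells (-1.24, adjusted p = 0.0506 from edgeR). *Cd8a* fell with RA (-3.04) from 5.23 and 15.4 CPM to 0.98 and 1.53. In the same libraries *Siglech*, a pDC marker, went from 21.4 and 59.7 CPM to 3.87 and 6.27. *Cd3e* had 0 counts there, while the T cell markers *Cd8b1* (-3.36), *Cd3d* (-4.03) and *Thy1* (-2.62) were lower with RA. Of the 7 tested markers in each of the pDC and the T and NK lists, 5 were lower and 0 higher with RA. Which cells carried *Cd8a* was not tested. *Mpo*, a granule enzyme gene, had 1.17 and -2.19 and passed in neither.

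Of 5 tested genes known as repressed by RUNX factors, 1 was lower in ∆RaraCD11c cells and 3 were lower with RA, against 13.3% and 19.3% of all tested genes, with medians of -0.68 and -2.46. *Ccr7*, the lymph node homing receptor of DCs, fell from 51.8 and 76.7 CPM in WT 1 and WT 2 to 10.9 and 21.0 in the ∆RaraCD11c libraries and from 119 and 133 CPM in the Control libraries to 5.79 and 6.75 with RA (-2.001 and -4.33, adjusted p = 0.00401 and 5.70e-05 from edgeR). *Cdkn1a*, a cell cycle inhibitor, fell with RA (-1.77) and had -0.68 in ∆RaraCD11c cells, not past the threshold. *Zbtb7b*, encoding ThPOK, had -0.51 and -0.47 and just missed the threshold in both (adjusted p = 0.0520 and 0.0564 from edgeR). *Il4*, a T helper cytokine gene, went the other way in ∆RaraCD11c cells, with 0.11 and 0.20 CPM in WT 1 and WT 2 and 1.29 and 0.58 CPM in the ∆RaraCD11c libraries, and just missed the threshold (2.48, adjusted p = 0.0519 from edgeR). In the Control and RA libraries *Il4* had at most 0.057 CPM.

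Bone genes that RUNX2 activates were mostly near 0 apart from *Spp1*. Of 9 listed, 4 could be tested, and 1 was higher and 0 were lower in ∆RaraCD11c cells, while 2 were higher and 2 lower with RA. Over all tested genes 13.6% were higher and 13.3% lower in ∆RaraCD11c cells, and 15.2% were higher and 19.3% lower with RA. *Spp1*, encoding osteopontin, which macrophages make as well as bone cells, was at 4107 and 4641 CPM in WT 1 and WT 2 and at 8511 and 8554 in the ∆RaraCD11c libraries. In the RA experiment it was at 1672 and 1945 CPM in the Control libraries and 4909 and 3658 with RA. It rose in both comparisons (0.96 and 1.24, adjusted p = 0.00509 and 0.000692 from edgeR). *Sp7*, encoding osterix, and *Bglap*, encoding osteocalcin, the defining osteoblast genes, had no more than 0.13 and 0.065 CPM in any library. *Vegfa* rose (1.45) and *Col1a1* and *Mmp13* fell (-3.63 and -2.04) with RA, and each was under 10 CPM in every library.

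**Figure D4:**
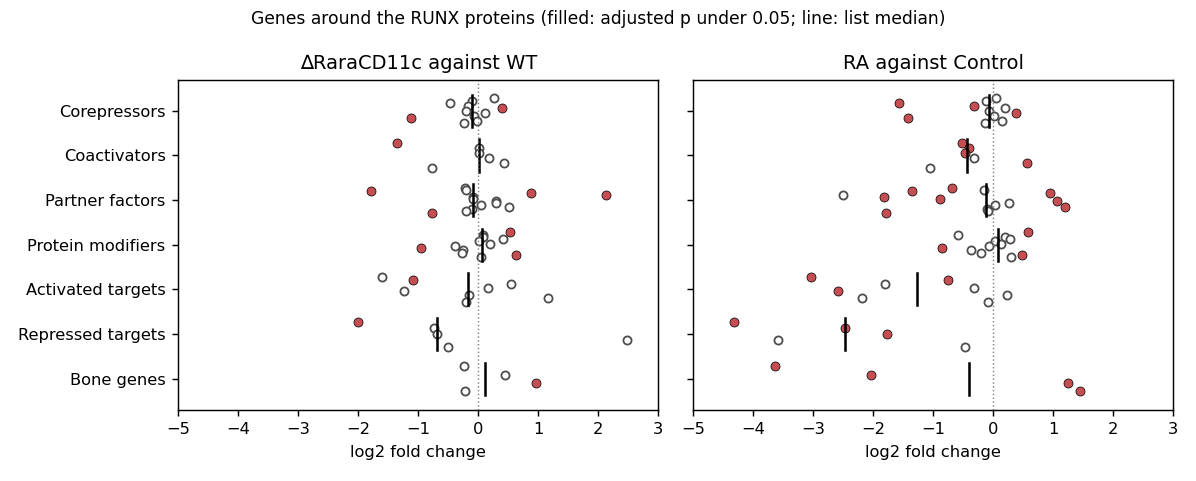
Log2 fold change (horizontal axis) of each tested gene in the 7 lists of RUNX cofactors, partners, modifiers and targets, in ∆RaraCD11c cells against WT 1 and WT 2 (left) and with RA against Control (right), filled where the adjusted p was under 0.05, with a line at each list's median. The medians lie between -0.68 and 0.12 on the left and between -2.46 and 0.08 on the right, and most points on the left are open.

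The remaining marker lists gave the setting of these values. B cell markers summed to 3.92 to 11.6 CPM in WT 1 and WT 2, 5.41 to 10.7 in the ∆RaraCD11c libraries, 1.18 to 1.41 in the Control libraries and 2.69 to 3.01 with RA, with 0 of 4 called in ∆RaraCD11c cells and *Cd79b* higher with RA (1.78). Megakaryocyte markers, of interest because RUNX1 acts in that lineage, summed to 32.0 to 35.98 CPM in WT 1 and WT 2 and 79.3 to 91.2 in the ∆RaraCD11c libraries, and to 36.4 to 43.7 CPM in the Control libraries and 8.86 to 12.2 with RA. *Pf4* was the largest part in every library, but in RA 2 it had 7.07 CPM beside 4.82 CPM for *Itga2b*, an integrin gene. *Pf4* rose in ∆RaraCD11c cells (1.37) and fell with RA (-2.35), while *Gp9*, which marks platelets and their precursors, had at most 0.027 CPM in any library. Mast cell markers summed to 38.5 to 62.7 CPM in WT 1 and WT 2, 20.0 to 30.6 in the ∆RaraCD11c libraries, 75.1 to 77.2 in the Control libraries and 11.2 to 15.4 with RA, most of it *Kit*, which DC progenitors also express. Osteoblast and stromal markers summed to at most 10.3 CPM in any library. Their sum was 2.72 to 4.47 CPM in the Control libraries and 0.81 to 1.12 with RA. All 4 tested were lower with RA, and 0 of 4 were called in ∆RaraCD11c cells. DC markers summed to 37166 to 41688 CPM in WT 1 and WT 2 and 24023 to 29881 in the ∆RaraCD11c libraries. They summed to 28484 to 30685 CPM in the Control libraries and 2279 to 3087 with RA. Of these 6 markers, 2 were lower in ∆RaraCD11c cells and 6 were lower with RA. *Cd74* was the largest part of the sum, and its change in ∆RaraCD11c cells missed the threshold (-0.55, adjusted p = 0.0527 from edgeR). Neutrophil markers fell with RA in 4 of 7, from 834 to 1171 CPM in sum to 170 to 212 CPM, and 0 of 7 were called in ∆RaraCD11c cells. Over all tested genes 13.3% were lower and 13.6% higher in ∆RaraCD11c cells, and 19.3% were lower and 15.2% higher with RA.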

How the data were processed

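The 4 members and the 16 gene lists were chosen with earlier results of these data known. The authors aligned read pairs to mm10 with STAR and counted unique pairs per RefSeq gene by strand with featureCounts (-s 2 -p -Q 10), for which the sources used here state no versions. Deposited counts are raw whole numbers. The RPKM values that the authors deposited were not used, since levels per kilobase were recomputed from counts and the deposited exon length. The deposited table of the authors' log2 fold changes, p-values and FDR was not used.

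Counts were tested in R 4.3.3 with edgeR 4.0.16 (TMM, glmQLFit, glmQLFTest) on all 8 libraries with 1 level for each of WT, ∆RaraCD11c, Control and RA, on 12424 genes (0.5 CPM or more in 2 or more libraries), with Benjamini-Hochberg adjustment over all of them and a threshold of 0.05. The main comparisons share no library. Columns named Control went to WT as a pair, as their names do not tell WT 3 from WT 4, and the 2 RPKM columns of that name were left unassigned. Standard errors are the fitted log2 fold change over the square root of F. The test was also run on simulated counts with 200 changed genes. No result of that run is used here, and it does not show how the test behaves on these libraries. Named were the members, up to 4 genes per list with the smallest p in either comparison, defining markers, and the genes nearest to each member by r (log2 CPM, prior count 2). *Spi1*, *Runx1t1*, *Supt3*, *Rara* and *Xist* were added after their values were seen. *Kat6b*, *Bst2*, *Irf8* and *Cd24a* are also named outside this rule. Lists fixed with *Tle5* and *Ly6g* found no such symbol in the table. Alternatives were DESeq2 1.42.0, a likelihood ratio test, other scalings and filters, pooled WT libraries, only the libraries compared, the trend on gene length removed (spline with 5 degrees of freedom), a replicate block, and each library left out. Depth was 26325627 to 76077813 counted pairs, and intervals cover the spread between libraries as fitted.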

Additional observations from a re-analysis of the deposited data

How the results depend on the processing

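The fall of *Runx3* with RA and in ∆RaraCD11c cells kept its direction in every fit run. With one library left out at a time, *Runx3* ran from -0.93 to -0.67 in ∆RaraCD11c cells, from -1.74 to -1.18 with RA and from -0.99 to -0.44 for their difference. *Runx2* ran from 0.21 to 0.37, from 0.28 to 0.56 and from -0.0612 to 0.22, *Runx1* from -0.20 to 0.0858, from -0.0312 to 0.17 and from -0.0164 to 0.27, and *Cbfb* from -0.20 to 0.0626, from -0.33 to -0.13 and from -0.30 to -0.03. Called genes ran from 981 (without WT 2) to 3174 in ∆RaraCD11c cells, from 2155 (without Control 2) to 4689 with RA and from 198 (without Control 1) to 634 for the difference. *Runx1* and *Cbfb*, called in no fit, changed sign in ∆RaraCD11c cells: *Runx1* was at 0.0239 with the 4 WT libraries pooled, and with the length trend removed *Runx1* was at 0.19, *Cbfb* at 0.0590 and *Runx2* at 0.58, now called. The cause was not tested. Only the 4 libraries of the comparison gave 2187 calls in ∆RaraCD11c cells, against 3346. For the difference, DESeq2 gave 1464 and the likelihood ratio test 1483, against 757. The trend on gene length removed gave 2247 calls in ∆RaraCD11c cells. Library totals moved the median of all tested genes to -0.14 in ∆RaraCD11c cells and the RUNX sum to -27.4%, and counts not divided by length gave -12.1% and, with RA, -16.6%. With one library left out, the sum ran from -21.9 to -17.4% and from -32.6 to -26.1%, and the log2 ratio of *Runx3* to *Runx1* from -0.84 to -0.60 and from -1.80 to -1.26.

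Samples of the WT and ∆RaraCD11c groups share replicate numbers, and with 2 pairs (correlation of deviations 0.283) the numbers were not taken as pairing. A replicate block gave 4242 calls and -0.75 for *Runx3* (adjusted p = 0.0157 from edgeR). Block and length trend together gave 0.19 for *Runx1*, 0.58 for *Runx2* (adjusted p = 0.0193 from edgeR), 0.0603 for *Cbfb* and 3390 calls. Depth limits genes near 0.5 CPM, not the members.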
